A study of Mus musculus with 18 samples.

Results

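Lipopolysaccharide (LPS), a glycolipid that coats Gram-negative bacteria, was compared with mock treatment in mouse bone marrow macrophages by sequencing of poly(A) RNA. The comparison takes in every gene of the deposited count table in 8 of the 18 libraries of the series: 3 libraries of the mock group (Con) and 5 of the LPS group, which the design text names as the positive control for inflammation. The other 10 libraries, from 2 groups that received apoptotic bodies of cells labelled hucMSC, entered the fit for the estimate of the spread and the choice of genes with enough counts. The labels used here give no dose or duration of LPS, no mouse strain, sex or age, and no culture conditions for either group. They also do not say whether replicates of a group came from separate animals or cultures, so p-values cover the variation among libraries alone, and that variation may be technical.

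Macrophages detect LPS with Toll-like receptor 4 and its partners MD-2 and CD14. The receptor signals through the adaptor MyD88 to the transcription factor NF-kB, which drives inflammatory cytokines and chemokines, and through the adaptor TRIF to IRF3, which drives interferon-beta. Secreted interferon then acts back on the cells through JAK kinases and STAT transcription factors and induces antiviral genes, while NF-kB also induces its own inhibitors.

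The 8 libraries held 18089053 to 18582823 estimated counts each. Of 16909 gene symbols, 12465 had enough counts to be tested. Levels are given as CPM, counts brought to a common library size with TMM, a scaling that sets aside genes with extreme changes, and per-library values follow replicate numbers 1 to 3 in Con and 1 to 5 in LPS. A gene is said to have risen or fallen where edgeR's quasi-likelihood F-test gave a Benjamini-Hochberg adjusted p of at most 0.05 over all genes tested, and errors after log2 fold changes are standard errors. Of the genes tested, 4991 rose (40.0%) and 5361 fell (43.0%), so that 83.0% passed in either direction and a count of members is to be read against those shares. At least 2-fold higher were 2325 genes (18.7%) and at least 2-fold lower 2615 (21.0%). At 4-fold the shares were 9.07% higher and 7.25% lower, and at 8-fold 5.18% and 2.40%. Rises reached further than falls: 235 genes rose at least 32-fold (1.89%) and 31 fell as far (0.249%). The first principal component of the 8 libraries, which separated LPS from Con, held 94.3% of the variance, and the next held 1.40%.

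**Figure D1:**
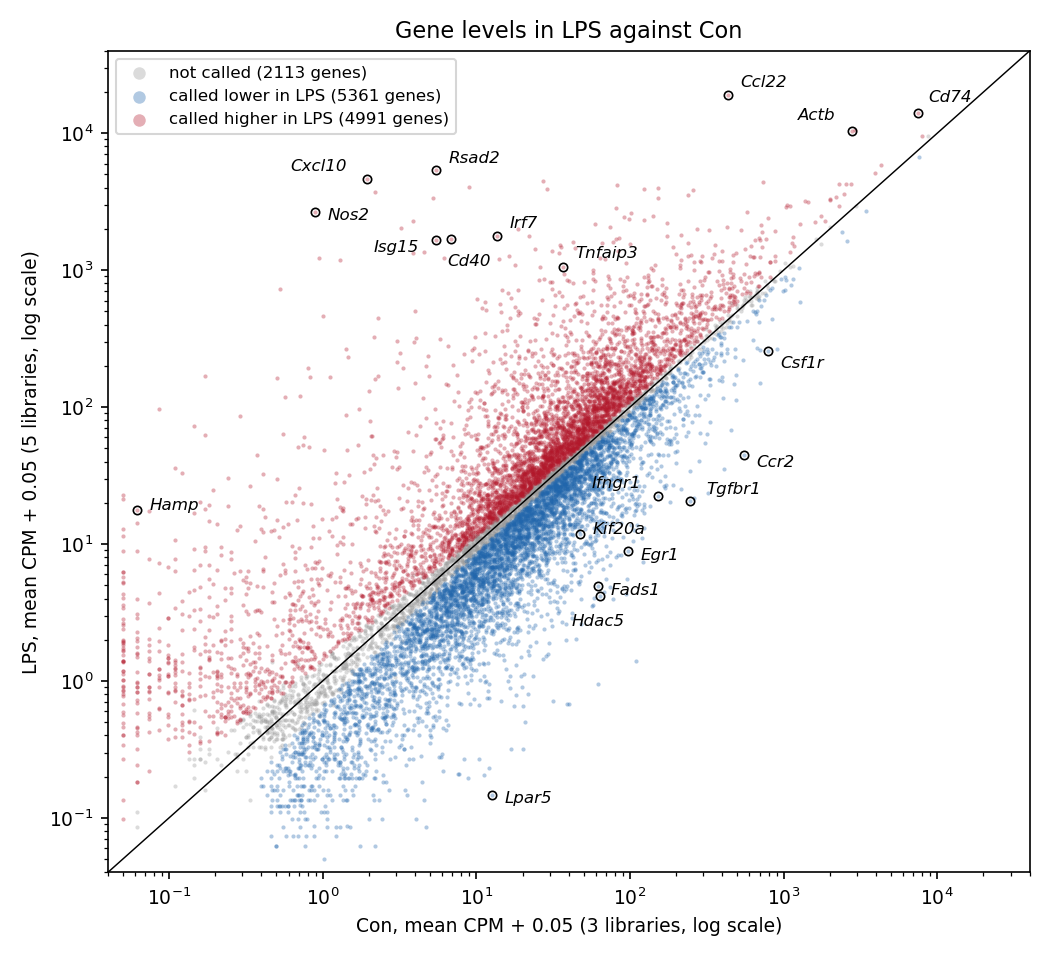
Mean level of each tested gene in Con (x axis, 3 libraries) and in LPS (y axis, 5 libraries), in CPM plus 0.05 on log scales. Points above the diagonal are higher in LPS. Red points (4991 genes) were called higher, blue points (5361) lower and grey points (2113) were not called. Cxcl10, Rsad2 and Nos2 lie far above the line, and Lpar5, Hdac5 and Ccr2 below it.

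The split between rises and falls depended on the scaling. With TMM 48.2% of the calls were rises, with upper-quartile scaling 36.0% and with library totals alone 21.2%. Against TMM, upper-quartile scaling moved the median log2 fold change of all genes from -0.03 to -0.31 and library totals moved it to -0.78, so a small rise holds only relative to the other genes. Genes called higher under all 4 scalings (TMM, DESeq2 size factors, upper quartile and totals) made up 19.0% of those tested and genes called lower 42.3%. Beside the counts of a gene list printed here, the split with library totals is given where the majority changes, and for some other lists where it shifts.

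The counts were redistributed toward strongly induced genes. Genes at least 2-fold higher in LPS held 16.1% ± 0.0362 of the estimated counts in Con and 49.1% ± 0.429 in LPS (SD, n = 3 and n = 5), a summary of genes chosen by that same change. The 235 genes at least 32-fold higher held 0.215% ± 0.0110 of the estimated counts in Con and 10.1% ± 0.0909 in LPS. Genes at least 2-fold lower held 11.9% ± 0.137 of the estimated counts in Con and 2.22% ± 0.0184 in LPS. Independently of any choice by change, the 100 most counted genes of each library held 22.7% ± 0.0699 of the counts in Con and 28.4% ± 0.320 in LPS. That share was higher in all 5 LPS libraries than in all 3 Con libraries (exact two-sided permutation test, p = 0.0179, the smallest that 3 against 5 libraries can give). The number of genes at or above 1 CPM was 11265 ± 27.2 in Con and 11096 ± 12.2 in LPS, also without overlap (exact two-sided permutation test, p = 0.0179). With library totals in place of TMM the numbers were 11573 ± 23.7 and 10982 ± 17.3, a wider gap.

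**Figure D2:**
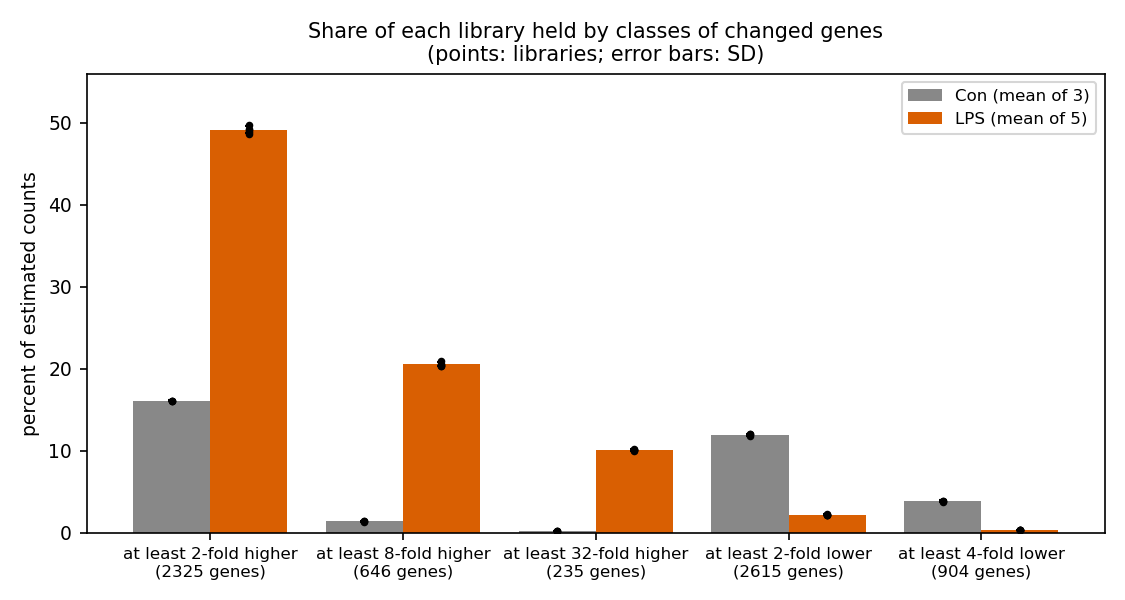
Percent of each library's estimated counts held by classes of called genes, as the mean of 3 Con libraries (grey) and of 5 LPS libraries (orange), with SD bars and a point for each library. Genes at least 2-fold higher went from 16.1% to 49.1% of the counts, and genes at least 2-fold lower from 11.9% to 2.22%. The classes were chosen by this same change.

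The gene with the largest gain of level was Ccl22, a chemokine that attracts T cells through CCR4, measured at 378, 439.6 and 479 CPM in Con and 20183, 18433, 19365, 18545 and 18309.6 CPM in LPS. All LPS libraries lay above all Con libraries (log2 fold change 5.46 ± 0.10, adjusted p = 2.4e-22), a separation seen in 38.4% of the genes tested, with 41.7% separated the other way. Other large gains were those of Actb (cytoplasmic actin, from 2772 to 10395 CPM), Fth1 (ferritin heavy chain, from 2916 to 10483 CPM), Cd74 (the MHC class II invariant chain, from 7465 to 14090.2 CPM) and Rnf213 (a large E3 ubiquitin ligase, from 124 to 3895 CPM). The largest losses included the translation elongation factors Eef2 (from 2586 to 1628 CPM) and Eef1a1 (from 7562 to 6703 CPM), the chemokine Ccl6 (from 3443 to 2715 CPM), the lectin Mgl2 (from 1269.6 to 589 CPM) and the matrix protein Tgfbi (from 706 to 150.0 CPM). All 12 largest gains and all 12 largest losses passed in the same direction under all 4 scalings. Eef1a1 was at 7948, 7545 and 7192 CPM in Con and 7379, 6424, 6567, 6522 and 6620.3 CPM in LPS, where LPS1 overlapped Con (log2 fold change -0.17 ± 0.06, adjusted p = 0.00852), and edgeR's adjusted p was 0.0563 without Con1 and 0.101 with replicates 1 to 3 only. In bulk RNA, fewer cells of a type and less RNA per cell cannot be told apart.

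Promoter stretches of 5 genes are shown as examples of the motif matches counted over chemokine, antiviral and cell cycle genes, groups whose members moved together, with that of the cytokine gene Il6 beside them. The sequences are RefSeq's (GRCm38.p6, a build other than the mm39 of the submitters' processing notes), each covering the 250 bases before the annotated start, 5′ to 3′ on the gene's strand. Capitals mark, on either strand, only the matches named for each gene in the sentences that follow, and any other match stays in lower case. The motifs are the NF-kB consensus, the interferon-stimulated response element (ISRE; GAAANN followed directly by GAAA), and the CCAAT box bound by NF-Y. Cxcl10 (chr5:92348890-92349139, minus strand), a chemokine for activated T cells, held both an ISRE match and NF-kB matches. Il6 (chr5:30012864-30013113, plus strand) and Cxcl1 (chr5:90890995-90891244, plus strand) held NF-kB matches, Isg15 (chr4:156200819-156201068, minus strand) and Rsad2 (chr12:26456453-26456702, minus strand) ISRE matches, and Ccnb2 (chr9:70421555-70421804, minus strand), a mitotic cyclin, 3 CCAAT boxes.
Cxcl10: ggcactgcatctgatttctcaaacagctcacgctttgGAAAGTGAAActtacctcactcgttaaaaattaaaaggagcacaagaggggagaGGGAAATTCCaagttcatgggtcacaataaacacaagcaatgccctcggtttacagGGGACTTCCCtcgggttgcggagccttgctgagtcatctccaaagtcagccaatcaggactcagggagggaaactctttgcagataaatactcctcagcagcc
Il6: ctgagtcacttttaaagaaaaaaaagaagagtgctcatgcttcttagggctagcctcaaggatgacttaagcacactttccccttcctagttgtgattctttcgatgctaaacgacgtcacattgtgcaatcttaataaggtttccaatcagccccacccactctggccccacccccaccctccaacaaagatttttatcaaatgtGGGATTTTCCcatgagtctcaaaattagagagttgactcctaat
Cxcl1: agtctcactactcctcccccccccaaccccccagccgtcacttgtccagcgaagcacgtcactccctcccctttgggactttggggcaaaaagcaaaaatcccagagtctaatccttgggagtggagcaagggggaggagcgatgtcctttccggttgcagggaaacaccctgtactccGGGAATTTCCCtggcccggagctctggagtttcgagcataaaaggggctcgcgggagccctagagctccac
Isg15: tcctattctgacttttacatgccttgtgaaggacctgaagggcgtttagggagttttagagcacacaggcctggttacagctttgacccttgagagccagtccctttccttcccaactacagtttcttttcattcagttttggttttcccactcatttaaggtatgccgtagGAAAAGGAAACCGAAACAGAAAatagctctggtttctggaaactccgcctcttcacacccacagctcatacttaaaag
Rsad2: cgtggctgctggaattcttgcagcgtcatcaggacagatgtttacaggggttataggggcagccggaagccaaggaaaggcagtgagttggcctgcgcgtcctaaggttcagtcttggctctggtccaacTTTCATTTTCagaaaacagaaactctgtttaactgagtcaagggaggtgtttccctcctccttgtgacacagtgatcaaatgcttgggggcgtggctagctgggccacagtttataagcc
Ccnb2: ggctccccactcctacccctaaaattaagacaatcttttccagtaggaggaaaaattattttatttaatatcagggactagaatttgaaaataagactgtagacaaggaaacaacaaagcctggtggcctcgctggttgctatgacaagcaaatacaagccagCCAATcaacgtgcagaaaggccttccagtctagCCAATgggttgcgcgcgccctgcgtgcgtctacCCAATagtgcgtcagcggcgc
Of the genes tested, 9991 matched a RefSeq promoter window and 7955 had a single one (250 bases before to 50 after the start). These single windows were searched on both strands, except that the TATA box was searched on the gene's own strand only. The 3 ISRE matches of Isg15 overlap each other, as do the 2 NF-kB matches of Cxcl1. An ISRE match was present in 3.43% of these windows, in 14.9% of those of genes at least 8-fold higher, in 0 of 171 of those at least 8-fold lower, and in 18 of 32 antiviral and GTPase members. The NF-kB consensus was present in 5.17% of all windows, in 11.6% of those at least 8-fold higher and in 5 of 17 of the chemokines. Among these it stood in 1 of 8 windows of CC chemokines and 4 of 9 of CXC and CX3C chemokines. The element of AP-1 factors, TGANTCA, was present in 4.85% of all windows and in 11.4% of those at least 8-fold higher. The chemokines also held the TATA box TATAAA in 41.2% of windows, against 4.50% overall. CCAAT stood in 40.0% of all windows and in 32 of 43 windows of DNA replication and mitosis genes. A match is a description of these letters, not a measured site.

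Recognition receptors moved in both directions. Of 23 tested genes for Toll-like receptors and LPS recognition, 12 rose, 8 fell and 3 did not pass, but 9 and 13 with library totals (median log2 fold change 0.30, against -0.03 over all genes). Tlr3, an endosomal sensor of double-stranded RNA, was at 4.85, 5.16 and 3.87 CPM in Con and 79.4, 83.7, 81.3, 84.3 and 87.7 CPM in LPS. The groups did not overlap (log2 fold change 4.17 ± 0.13, adjusted p = 5.72e-18). Tlr1, which pairs with Tlr2 to detect bacterial lipopeptides, rose from 1.29 to 17.6 CPM (3.76 ± 0.23), and the nucleic acid sensors Tlr7 and Tlr9 rose by 2.14 ± 0.14 and 1.74 ± 0.11 on the log2 scale. Ly96, which encodes MD-2, rose from 2.89 to 10.98 CPM. Tlr5, the flagellin receptor, was low throughout, at 2.32, 2.38 and 1.66 CPM in Con and 0.0599, 0.121, 0.184, 0 and 0.0614 CPM in LPS, with every LPS library below every Con library (log2 fold change -4.54 ± 0.37, adjusted p = 1.78e-10). Cd300lb, an activating receptor that binds LPS and TLR4, was at 48.7, 45.8 and 48.5 CPM in Con and 2.09, 2.12, 2.45, 3.002 and 3.07 CPM in LPS. It fell without overlap (log2 fold change -4.22 ± 0.16, adjusted p = 1.31e-16).

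Of 23 tested adaptors, kinases and TRAF proteins of the same pathway, 16 rose, 5 fell and 2 did not pass (median log2 fold change 0.99). Library totals gave 12 higher and 10 lower. Traf1, a signalling adaptor of TNF receptors, rose from 47.2 to 634 CPM (3.75 ± 0.07). Map3k8, the kinase that links Toll-like receptors to ERK, rose from 12.4 to 124 CPM and Peli1, a ubiquitin ligase of the IRAK step, from 15.6 to 188 CPM. Irak3, the inhibitory IRAK-M, rose from 20.9 to 76.9 CPM, while Sigirr, an inhibitory receptor of the IL-1 and Toll family, fell from 5.16 to 0.412 CPM. In the NF-kB list 22 of 23 tested members rose and only Nlrc3, a negative regulator at under 1 CPM in both groups, fell (median log2 fold change 2.19). Rel rose from 106 to 622 CPM and Relb from 42.5 to 216 CPM, Ikbke, a kinase of IRF3 and NF-kB, from 46.2 to 484 CPM, and Bcl3, a nuclear IkB protein, from 13.2 to 147 CPM. Tnfaip3, which encodes the ubiquitin-editing inhibitor A20, was at 36.7, 38.8 and 34.6 CPM in Con and 923, 1100.2, 1080.1, 1005 and 1204 CPM in LPS. Every LPS library lay above every Con library (log2 fold change 4.86 ± 0.11, adjusted p = 2.06e-20).

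**Figure D3:**
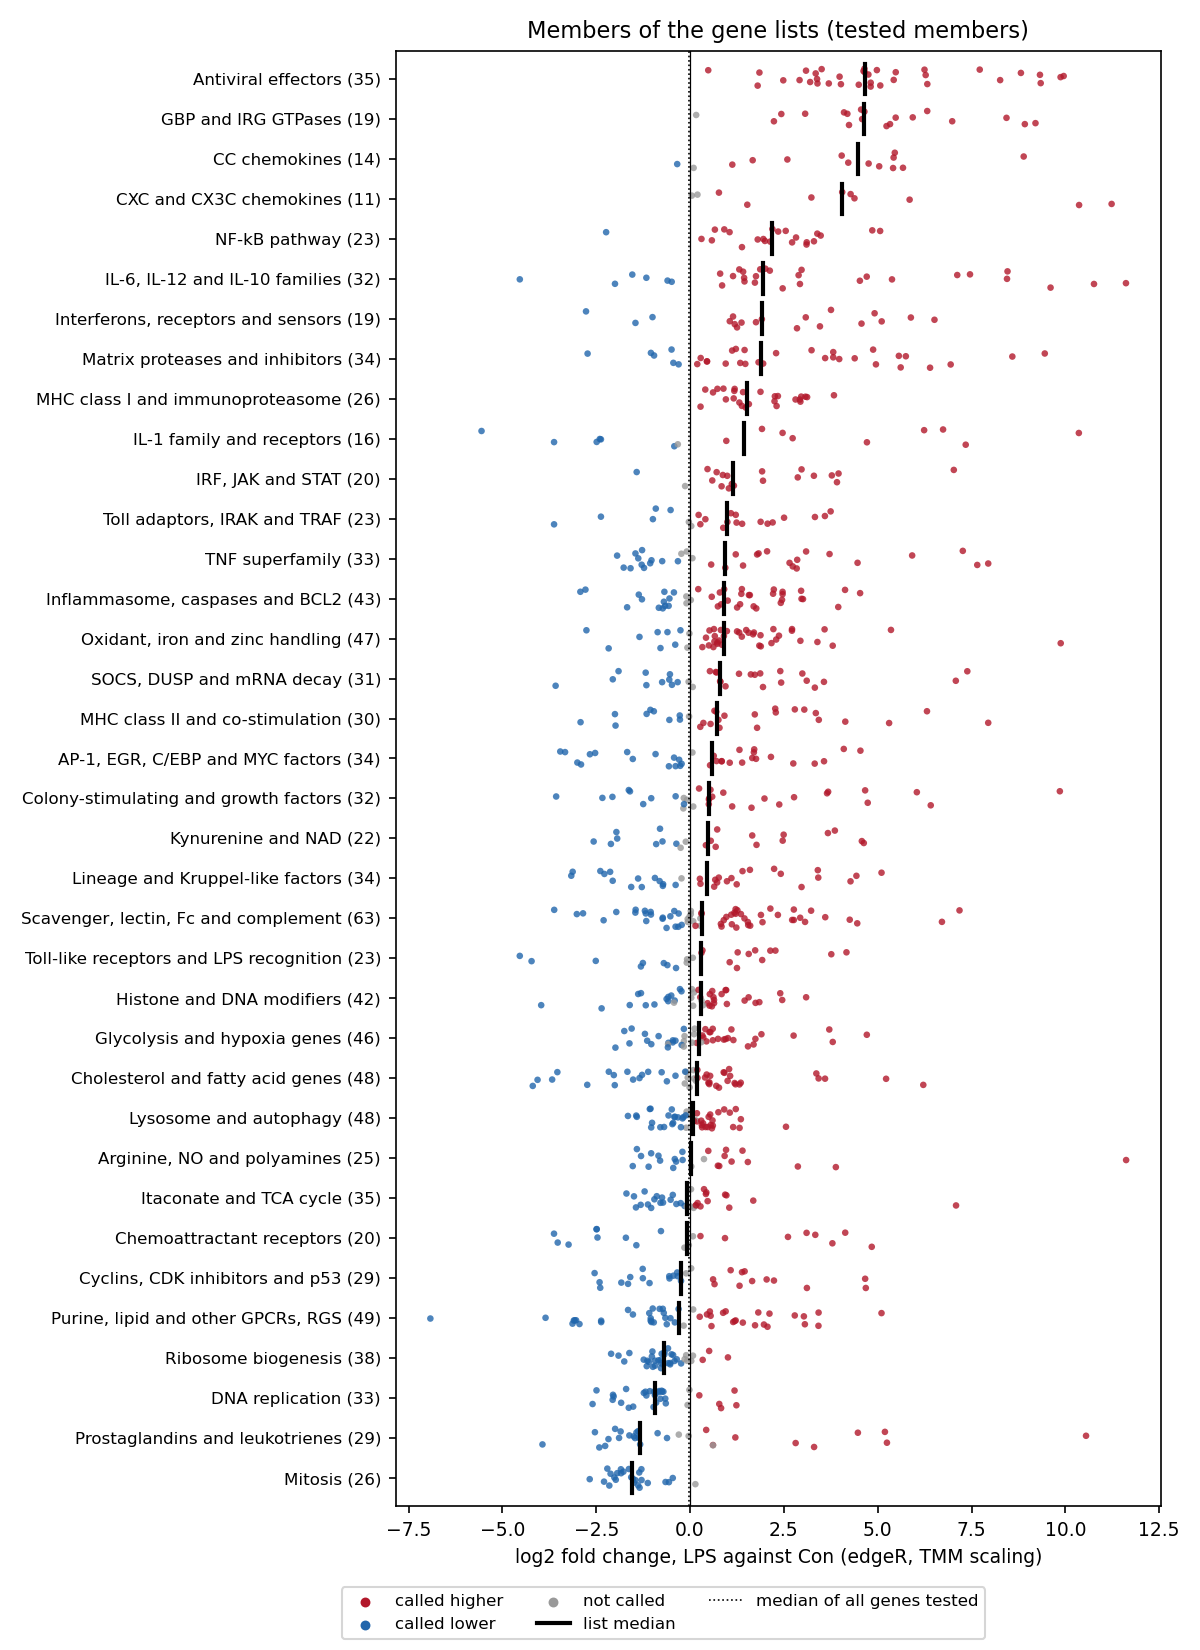
log2 fold change (x axis, LPS against Con) of every tested member of 36 gene lists (rows, number of members in brackets), coloured by call, with the median of each list as a black bar and the median of all genes (-0.03) dotted. Antiviral effectors and GBP and IRG GTPases (medians of 4.65 each) lie at the top, and DNA replication (-0.93) and mitosis (-1.55) near the bottom.

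Early-response transcription factors were split: of 34 tested AP-1, EGR, C/EBP, MYC and related genes, 18 rose, 15 fell and 1 did not pass, and 13 and 17 with library totals. Batf, an AP-1 factor of activated lymphocytes and dendritic cells, rose from 6.34 to 148 CPM and Batf2 from 4.25 to 72.9 CPM. Nr4a3, an orphan nuclear receptor, rose from 94.4 to 1121 CPM. Egr1, an immediate early factor, was at 84.2, 111 and 95.8 CPM in Con and 8.499, 9.69, 8.21, 8.04 and 9.57 CPM in LPS. Its LPS libraries were all below its Con libraries (log2 fold change -3.46 ± 0.15, adjusted p = 9.07e-16). Egr2 fell from 124 to 19.5 CPM, Fos from 26.7 to 9.24 CPM and Myc from 44.9 to 14.05 CPM. Cebpa, a driver of myeloid differentiation, fell from 83.4 to 8.28 CPM (-3.33 ± 0.09), and Cebpb rose from 119 to 296 CPM.

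Of 34 tested lineage and Kruppel-like factors, 19 rose, 14 fell and 1 did not pass, and 13 and 17 with library totals. Irf8, a factor of monocyte and dendritic cell development, was at 85.1, 82.5 and 101 CPM in Con and 719.6, 723, 750.1, 751 and 571 CPM in LPS. Its LPS values were all above its Con values (log2 fold change 2.97 ± 0.11, adjusted p = 4.08e-17). Maf, a basic leucine zipper factor, rose from 2.17 to 42.2 CPM. Klf4 fell from 46.1 to 5.26 CPM, Rxra, a partner of lipid-sensing nuclear receptors, from 68.1 to 12.98 CPM, Ahr, the aryl hydrocarbon receptor, from 101 to 23.2 CPM and Pparg from 11.3 to 2.702 CPM. Tcf4 rose from 23.1 to 246 CPM, Gfi1, a transcriptional repressor, from 2.07 to 44.9 CPM and Spic, a factor of iron-recycling macrophages, from 0.578 to 20.1 CPM.

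Interferon-pathway genes rose as a group. Of 20 tested IRF, JAK and STAT genes, 18 rose, 1 fell and 1 did not pass (median log2 fold change 1.14). Irf7, the factor that amplifies type I interferon, was at 14.8, 10.1 and 15.5 CPM in Con and 1654, 1806, 1884, 1753 and 1726 CPM in LPS. The groups stood far apart (log2 fold change 7.03 ± 0.12, adjusted p = 7.62e-23). Stat2 rose from 74.7 to 736 CPM, Irf1 from 22.3 to 306 CPM and Stat5a from 57.5 to 867 CPM. Irf3 itself was at 32.99 and 30.1 CPM and did not pass (log2 fold change -0.13 ± 0.08, adjusted p = 0.117), though it was called lower with upper-quartile scaling (-0.41) and library totals (-0.88).

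Of 19 tested genes for interferon, its receptors and nucleic acid sensors, 16 rose, 3 fell and 0 did not pass. Ifih1, which encodes the RNA sensor MDA5, was at 24.0, 23.8 and 24.7 CPM in Con and 1423, 1443, 1352, 1384 and 1535 CPM in LPS. Its groups did not overlap (log2 fold change 5.88 ± 0.11, adjusted p = 8.93e-22). Dhx58 (LGP2) rose from 17.9 to 542 CPM, Ddx58 (RIG-I) from 30.9 to 733 CPM and Zbp1, a sensor of left-handed nucleic acids, from 14.3 to 494 CPM. The 3 members that fell were Ifngr1, Mavs, the adaptor of the RNA sensors (from 37.2 to 13.6 CPM), and Sting1, the adaptor of cGAS (from 127 to 63.7 CPM). Ifngr1, the ligand-binding chain of the interferon-gamma receptor, was at 154, 149.8 and 152 CPM in Con and 22.4, 21.2, 21.9, 22.9 and 22.5 CPM in LPS. Every LPS library was below every Con library (log2 fold change -2.77 ± 0.07, adjusted p = 9.78e-20), while its partner Ifngr2 rose from 73.3 to 189.7 CPM.

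All 35 tested antiviral effectors rose under TMM scaling (median log2 fold change 4.65), 34 of them also with library totals. Rsad2, which encodes viperin, an enzyme that makes a chain-terminating nucleotide, was at 6.81, 3.79 and 5.78 CPM in Con and 4851, 5549, 5412, 5113 and 6222 CPM in LPS. The groups were separate by a wide margin (log2 fold change 9.96 ± 0.15, adjusted p = 2.53e-23). Cmpk2, a mitochondrial nucleotide kinase, rose from 5.18 to 3372 CPM, and Isg15, a ubiquitin-like modifier, from 5.41 to 1665 CPM. Oasl1 rose from 3.18 to 2044 CPM and Ifit2, which restricts viral translation, from 8.97 to 4046 CPM. The smallest rise was that of Ifitm1, from 344 to 481 CPM, a call lost with the DESeq2 test, with upper-quartile scaling, with a stricter filter and when any single library was left out. With library totals its log2 fold change was -0.26 and did not pass. Of 19 tested guanylate-binding proteins and immunity-related GTPases, which attack pathogen vacuoles, 18 rose, 0 fell and 1 did not pass (median log2 fold change 4.65). Gbp5 was at 23.6, 20.7 and 22.1 CPM in Con and 1781, 1726, 1706, 1732 and 1889 CPM in LPS. It rose without overlap (log2 fold change 6.32 ± 0.10, adjusted p = 4.73e-23). Iigp1 rose from 0.952 to 465 CPM and Irgm1 from 26.1 to 1049.5 CPM. Most genes of this GTPase family (15 of 19) had estimated counts that were not whole numbers in most of the 8 libraries, which can occur where near-identical copies share reads, so the values of single members are uncertain. Other genes named here with such counts in most libraries were Actb, Ccr2, Cflar, Clec10a, Eef1a1, Fcgr2b, Fcgr3, Il18bp, Il4i1, Lyz2, Mertk, Mgl2, Scd2, Setdb2, Stat5a, Tlr1, Tlr7, Tnfsf12, Tnfsf13 and Tyms.

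Of 16 tested IL-1 family genes and receptors, 9 rose, 6 fell and 1 did not pass. Il33, an alarmin, rose from 0.699 to 53.3 CPM. Il1f6, which encodes IL-36 alpha, was without counts in Con and averaged 8.85 CPM in LPS, which is at least 244-fold higher if Con is set at 3 counts in all (a bound for counting error only). Il18r1, the IL-18 receptor, was at 34.2, 32.7 and 28.2 CPM in Con and 0.359, 0.848, 0.429, 0.660 and 1.04 CPM in LPS. No LPS library reached a Con library (log2 fold change -5.56 ± 0.19, adjusted p = 1.37e-17), with its co-receptor Il18rap falling from 54.7 to 9.75 CPM and the IL-33 receptor Il1rl1 from 28.6 to 5.52 CPM. Il18bp, the decoy that binds IL-18, rose from 9.24 to 61.5 CPM. Of 32 tested genes of the IL-6, IL-12 and IL-10 families, 26 rose, 6 fell and 0 did not pass (median log2 fold change 1.94). Il12a, the p35 chain of IL-12, rose from 0.133 to 19.4 CPM and Il23a, the p19 chain of IL-23, from 0.108 to 20.3 CPM. Il15 rose from 4.42 to 116 CPM and Il15ra, which presents it, from 7.39 to 170.3 CPM. Il19, likewise without counts in Con, averaged 5.25 CPM in LPS and so was at least 145-fold higher. Il16, a lymphocyte attractant, fell from 34.3 to 8.58 CPM. Among the receptors, Il12rb2 and Il10ra rose from 32.2 to 245 CPM and from 168 to 568 CPM, while Il6ra (from 30.1 to 10.3 CPM), Il6st (from 59.02 to 26.3 CPM) and Lifr (from 19.8 to 0.848 CPM) fell.

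Of 33 tested TNF superfamily ligands and receptors, 18 rose, 12 fell and 3 did not pass, 17 and 16 with library totals. Cd40, the receptor through which helper T cells activate macrophages, was at 7.35, 6.498 and 6.65 CPM in Con and 1802, 1648, 1709, 1647 and 1625 CPM in LPS. The groups stood far apart (log2 fold change 7.95 ± 0.14, adjusted p = 1.92e-22). Tnfsf15 (TL1A) rose from 6.13 to 1236 CPM and Tnfsf10 (TRAIL) from 1.06 to 165 CPM. Tnfsf13 (APRIL) fell from 15.9 to 6.53 CPM and Tnfsf12 (TWEAK) from 24.98 to 9.11 CPM. Of 32 tested colony-stimulating and growth factor genes, 19 rose, 9 fell and 4 did not pass, and 12 and 18 with library totals. Inhba, the activin A subunit, rose from 91.2 to 2429 CPM (4.73 ± 0.15), Edn1 (endothelin) from 0.771 to 51.3 CPM and Ereg (epiregulin) from 0.157 to 13.9 CPM. Csf3, without counts in Con, averaged 6.23 CPM in LPS and so was at least 172-fold higher. Csf1r, the receptor for the survival factor of macrophages, was at 809.9, 771 and 793 CPM in Con and 221, 264, 274, 249 and 268 CPM in LPS. The LPS libraries were the 5 lowest (log2 fold change -1.63 ± 0.08, adjusted p = 1.17e-14), while its ligand Csf1 rose from 28.8 to 197 CPM. Tgfbr1, the signalling receptor for TGF-beta, was at 247, 255 and 236 CPM in Con and 22.5, 20.1, 20.5, 22.6 and 17.98 CPM in LPS. Every LPS library was below every Con library (log2 fold change -3.57 ± 0.10, adjusted p = 5.74e-19), and Tgfbr2 fell from 71.2 to 14.1 CPM.

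**Figure D4:**
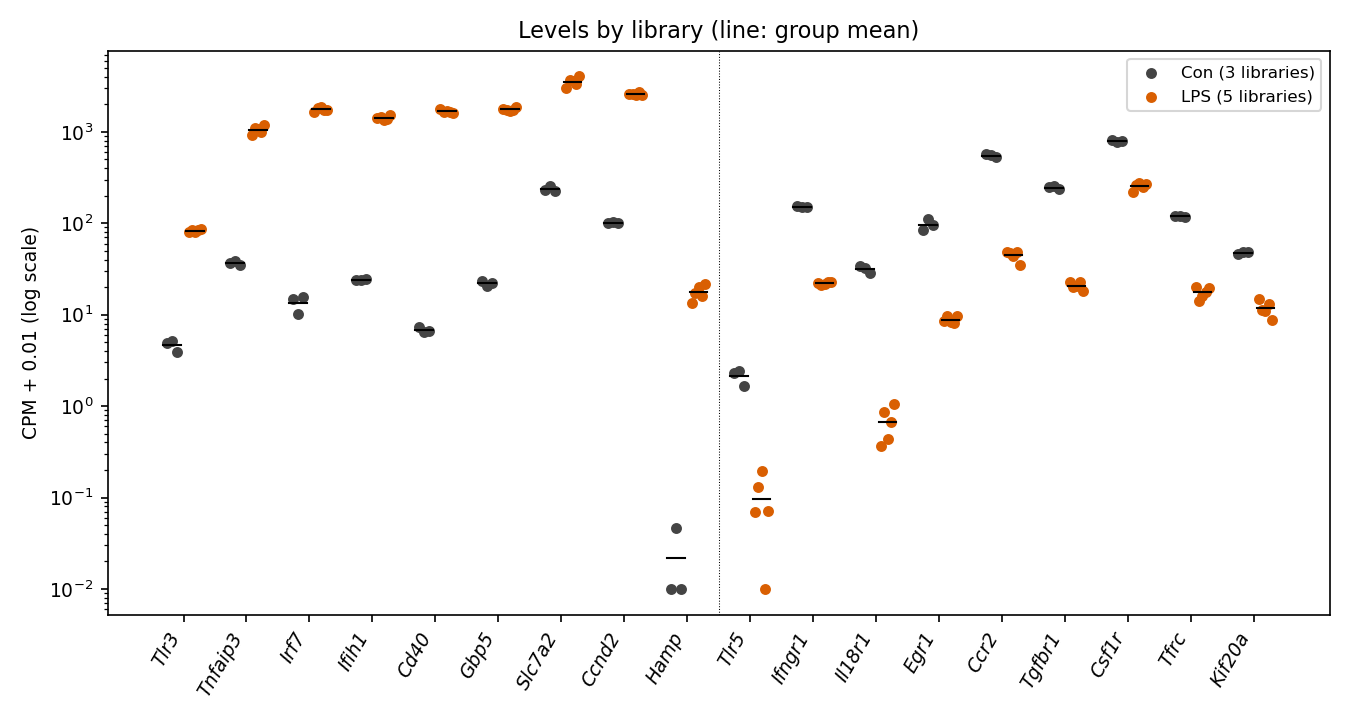
Level of 18 members in each of the 3 Con (grey) and 5 LPS (orange) libraries, in CPM plus 0.01 on a log scale, with group means as lines. The 9 genes left of the dotted line were higher in every LPS library and the 9 right of it lower in every LPS library than in any Con library.

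Of 14 tested CC chemokines 12 rose, Ccl6 fell and 1 did not pass (median log2 fold change 4.49). Ccl7, a monocyte attractant, rose from 4.63 to 199 CPM, Ccl12 from 1.81 to 33.7 CPM and Ccl24 (eotaxin-2) from 0.819 to 13.6 CPM. Ccl1 had 1 count over the Con libraries and 8.903 CPM in LPS, 740.5 times higher (95% counting interval 132 to 29287). Of 11 tested CXC and CX3C chemokines 9 rose, 0 fell and 2 did not pass (median log2 fold change 4.05). Cxcl9, induced by interferon, was at 0.217, 0.108 and 0.0361 CPM in Con and 171, 170.0, 167, 177 and 155 CPM in LPS. The groups did not overlap (log2 fold change 10.37 ± 0.38, adjusted p = 8.32e-17). The neutrophil attractants Cxcl1 and Cxcl5 rose from 1.67 to 97.1 CPM and from 0.253 to 5.41 CPM.

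Chemoattractant receptors were split, 8 higher and 9 lower of 20 tested (median log2 fold change -0.09). Ccr2, which draws monocytes out of the marrow, was at 569.9, 558 and 527 CPM in Con and 48.9, 47.3, 43.5, 48.99 and 34.8 CPM in LPS. Every LPS library lay below every Con library (log2 fold change -3.63 ± 0.17, adjusted p = 8.03e-15). Ccr7, which guides cells to lymph nodes, rose from 142 to 2492 CPM, Ccrl2 from 7.03 to 202 CPM and the formyl peptide receptor Fpr1 from 12.5 to 127 CPM. Cxcr2 fell from 14.2 to 2.52 CPM, Cxcr4 from 26.2 to 4.74 CPM and the leukotriene B4 receptor Ltb4r1 from 59.1 to 10.5 CPM. Among 49 tested purine, lipid and other G protein-coupled receptors with RGS proteins, 22 rose, 25 fell and 2 did not pass. Adora2a, an adenosine receptor, rose from 4.88 to 168 CPM and Adora2b from 11.6 to 94.9 CPM. Lpar5, a receptor for lysophosphatidic acid, was at 12.4, 12.6 and 12.6 CPM in Con and 0.0599, 0.0606, 0.184, 0.0600 and 0.123 CPM in LPS. The LPS values were all close to 0 and below Con (log2 fold change -6.92 ± 0.28, adjusted p = 4.29e-16). Lpar6 fell from 36.1 to 4.68 CPM, while S1pr3, a sphingosine-1-phosphate receptor, rose from 5.43 to 58.4 CPM.

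Feedback regulators were split. Of 31 tested SOCS proteins, dual-specificity phosphatases and regulators of mRNA decay, 19 rose, 10 fell and 2 did not pass, 14 and 13 with library totals. Socs3 rose from 73.02 to 866 CPM and Socs1 from 13.03 to 131 CPM, Dusp2 from 0.326 to 44.99 CPM, Dusp14 from 0.0362 to 7.18 CPM and Dusp16 from 31.03 to 268 CPM. Zc3h12a (regnase-1), which cleaves cytokine mRNAs, rose from 21.8 to 173 CPM. Zfp36l2, an mRNA-destabilising protein, was at 257, 267 and 256 CPM in Con and 21.2, 21.8, 21.8, 19.7 and 24.1 CPM in LPS. Every Con library exceeded every LPS library (log2 fold change -3.58 ± 0.06, adjusted p = 2.53e-23), and Dusp6, an ERK phosphatase, fell from 56.6 to 15.1 CPM.

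Antigen presentation by MHC class I rose in all 26 tested members under TMM (median log2 fold change 1.52), and in 21 with library totals. Nlrc5, the transactivator of MHC class I genes, rose from 39.1 to 558 CPM, Tap1, the peptide transporter, from 131 to 921 CPM, Tapbp (tapasin) from 215 to 1808 CPM and the immunoproteasome subunit Psmb10 from 39.6 to 304 CPM. Of 30 tested MHC class II and co-stimulation genes, 20 rose, 9 fell and 1 did not pass, 13 and 12 with library totals. Ciita, the class II transactivator, was at 305 and 299.5 CPM (log2 fold change -0.03 ± 0.10, adjusted p = 0.81), but it was called lower with upper-quartile scaling (-0.30) and library totals (-0.77). Cd80 rose from 56.8 to 468 CPM, Cd274 (PD-L1) from 175 to 1786 CPM, Cd200 from 3.13 to 249.7 CPM and Slamf1 from 1.99 to 78.9 CPM. H2-DMa, a peptide-loading chaperone, fell from 485 to 233 CPM and Vsir (VISTA) from 132 to 33.1 CPM.

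Of 63 tested scavenger, lectin, Fc and complement genes, 34 rose, 21 fell and 8 did not pass, and 26 and 30 with library totals. Clec4e (Mincle), a receptor for mycobacterial glycolipid, rose from 38.7 to 848 CPM, Marco from 8.91 to 108 CPM and Cfb, complement factor B, from 123 to 2343 CPM. Serping1, the C1 inhibitor, rose from 0.133 to 14.6 CPM. Mertk, which binds apoptotic cells, rose from 125 to 551 CPM. Cd163, the haemoglobin scavenger receptor, was low and fell from 1.57 to 0.121 CPM, and Clec10a fell from 90.7 to 11.2 CPM. Fcgr2b, the inhibitory Fc receptor, fell from 631 to 306 CPM. The activating Fcgr4 rose from 5.04 to 47.2 CPM and Fcgr1 from 198 to 577 CPM, while Fcgr3, also activating, fell from 690 to 417 CPM.

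Of 25 tested genes of arginine and polyamine metabolism 11 rose, 12 fell and 2 did not pass. Slc7a2, an arginine transporter, was at 232, 258 and 226 CPM in Con and 3019.5, 3659.9, 3563, 3353 and 4052 CPM in LPS. The groups did not overlap (log2 fold change 3.89 ± 0.11, adjusted p = 7.31e-19). Gch1, which makes a cofactor of the enzyme Nos2, rose from 20.2 to 148 CPM and Ass1, which recycles citrulline, from 400.2 to 1163 CPM. Odc1, the first enzyme of polyamine synthesis, fell from 100.2 to 57.6 CPM and Srm from 23.8 to 11.1 CPM. In the itaconate and tricarboxylic acid cycle list 13 rose, 17 fell and 5 did not pass of 35 tested (median log2 fold change -0.09). Library totals gave 4 higher and 30 lower. Idh1 fell from 116 to 42.6 CPM, Fh1 (fumarase) from 58.2 to 20.6 CPM and Pdk1, a kinase that inhibits pyruvate dehydrogenase, from 60.1 to 18.6 CPM. Slc25a1, the citrate carrier, rose from 35.9 to 74.2 CPM, and the succinate dehydrogenase subunit Sdha was at 139 and 148 CPM (adjusted p = 0.0948).

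Of 22 tested kynurenine and NAD genes 12 rose, 8 fell and 2 did not pass, 8 and 11 with library totals. Il4i1, an oxidase of aromatic amino acids, rose from 66.1 to 1579 CPM, Cd38, an enzyme that consumes NAD, from 10.002 to 128 CPM and Nampt, which salvages it, from 118 to 664 CPM. Parp1 fell from 64.5 to 14.96 CPM. Of 29 tested prostaglandin, leukotriene and endocannabinoid genes, 9 rose, 17 fell and 3 did not pass (median log2 fold change -1.33). The leukotriene enzymes fell together: Alox5 from 122 to 39.7 CPM, its partner Alox5ap from 321 to 123 CPM, Lta4h from 202 to 55.9 CPM and Ltc4s from 11.6 to 4.202 CPM. Ptges, which makes prostaglandin E2, rose from 1.43 to 31.98 CPM, and Ptgs1, the constitutive cyclooxygenase, fell from 37.5 to 7.80 CPM. Daglb, which makes the endocannabinoid 2-AG, was at 61.6, 75.1 and 66.4 CPM in Con and 3.59, 4.36, 4.53, 5.28 and 4.36 CPM in LPS. All 5 LPS libraries lay below Con (log2 fold change -3.93 ± 0.10, adjusted p = 6.48e-20). Faah, which degrades fatty acid amides, rose from 0.615 to 22.7 CPM, and Naaa, another fatty acid amide hydrolase, fell from 701 to 260.3 CPM.

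Of 46 tested glycolysis and hypoxia genes 23 rose, 15 fell and 8 did not pass under TMM, but 17 and 19 with upper-quartile scaling and 10 and 29 with library totals. Members that rose under all 4 scalings included the transporter Slc2a6 (from 49.4 to 647 CPM), Upp1, a uridine phosphorylase (from 15.4 to 214 CPM), Pfkfb3, which activates glycolysis (from 51.8 to 351 CPM), and Hk2 (from 68.8 to 223 CPM). Hypoxia-responsive members went both ways: Bnip3 and Egln3 fell from 50.99 to 24.9 CPM and from 39.3 to 17.1 CPM, while Ndrg1, P4ha1 and Adm rose from 71.4 to 267 CPM, from 86.4 to 161 CPM and from 0.0482 to 1.43 CPM. Shpk, a sedoheptulose kinase, fell from 5.84 to 1.47 CPM. Of 48 tested cholesterol and fatty acid genes 24 rose, 17 fell and 7 did not pass, 20 and 23 with upper-quartile scaling and 11 and 30 with library totals. Ch25h, which makes the antiviral oxysterol 25-hydroxycholesterol, rose from 16.8 to 628 CPM and Acsl1, an acyl-CoA synthetase, from 43.2 to 464 CPM. The desaturases Scd2 and Fads1 fell from 411 to 35.4 CPM and from 62.3 to 4.87 CPM, the elongase Elovl6 from 6.11 to 1.52 CPM and the fatty acid synthase Fasn from 110.4 to 24.6 CPM, while another elongase, Elovl1, rose from 77.2 to 88.3 CPM with overlap between the groups, a call lost without Con1 or Con2 and turned to lower with library totals (log2 fold change -0.55). Fads1 was at 57.6, 61.8 and 67.5 CPM in Con and 4.55, 4.24, 4.84, 5.88 and 4.85 CPM in LPS, with every LPS library below every Con library (log2 fold change -3.67 ± 0.10, adjusted p = 1.61e-19). Ppargc1b, a coactivator of oxidative metabolism, fell from 16.1 to 0.957 CPM.

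Of 47 tested oxidant, iron and zinc genes 37 rose, 8 fell and 2 did not pass, 24 and 13 with library totals. Sod2, the mitochondrial superoxide dismutase, rose from 59.3 to 827 CPM and Hp (haptoglobin) from 21.8 to 261 CPM. Hamp, which encodes the iron hormone hepcidin, had 1 count over the Con libraries and was at 13.5, 17.1, 20.04, 16.03 and 21.7 CPM in LPS, 1464 times higher (95% counting interval 262 to 57859). Tfrc, the transferrin receptor that imports iron, was at 121, 119.6 and 117 CPM in Con and 20.3, 14.2, 15.9, 17.6 and 19.7 CPM in LPS. The Con libraries were the 3 highest (log2 fold change -2.76 ± 0.10, adjusted p = 3.92e-17), and Cybb, a subunit of the phagocyte oxidase, rose from 529 to 1955 CPM.

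Of 43 tested inflammasome, caspase and BCL2 genes 27 rose, 13 fell and 3 did not pass, 22 and 18 with library totals. Casp4, which binds intracellular LPS, rose from 9.40 to 218 CPM (4.53 ± 0.09) and Gsdmd, the pore-forming protein that it activates, from 61.99 to 201 CPM. Mlkl, the executor of necroptosis, rose from 7.16 to 111 CPM and Cflar (c-FLIP), an inhibitor of caspase-8, from 57.4 to 1005 CPM. Bcl2 fell from 24.8 to 3.26 CPM and Gsdme from 8.496 to 1.23 CPM, whereas Bcl2l1 rose from 49.8 to 231 CPM. Of 34 tested matrix, protease and coagulation genes 28 rose, 6 fell and 0 did not pass (median log2 fold change 1.89). Plat, the tissue plasminogen activator, rose from 0.0964 to 72.3 CPM, and Plau, the urokinase, fell from 123 to 18.6 CPM. Vcan (versican) rose from 14.6 to 716 CPM and Mmp13, a collagenase, from 80.9 to 1694 CPM.

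Proliferation genes fell. Of 26 tested mitosis genes 25 fell, 0 rose and Tpx2 did not pass (median log2 fold change -1.55), the same direction with upper-quartile scaling and library totals (25 and 26 lower). Tpx2 was called higher with the Con and LPS libraries only (log2 fold change 0.15), with replicates 1 to 3 only (0.18), without LPS5 (0.18) and without replicate 2 of both apoptotic body groups (0.14), and lower with library totals (-0.60). Kif20a, a kinesin of the mitotic spindle, was at 46.05, 48.4 and 48.1 CPM in Con and 14.8, 11.1, 10.8, 12.97 and 8.84 CPM in LPS. It fell without overlap (log2 fold change -2.02 ± 0.11, adjusted p = 1.48e-13). Cenpf fell from 32.1 to 5.03 CPM, Kif23 from 36.2 to 7.39 CPM and Mki67, the proliferation antigen, least of the named members, from 199 to 145 CPM. Of 33 tested DNA replication genes 5 rose, 26 fell and 2 did not pass. Rrm2 fell from 56.7 to 17.4 CPM and E2f2 from 43.99 to 7.26 CPM, while Tyms rose from 14.8 to 34.9 CPM. Among 29 cyclins, CDK inhibitors and p53-related genes 12 rose, 15 fell and 2 did not pass. Ccnd2, cyclin D2, was at 99.99, 102 and 101 CPM in Con and 2622, 2600.1, 2539.6, 2725 and 2516 CPM in LPS. It rose without overlap (log2 fold change 4.68 ± 0.07, adjusted p = 1.59e-23), while Ccnd1 fell from 94.7 to 39.6 CPM. Cdkn1a (p21) rose from 284 to 1169 CPM and Gadd45b from 15.8 to 400.4 CPM. Of 38 tested ribosome biogenesis genes 3 rose, 30 fell and 5 did not pass (median log2 fold change -0.70). Rrp1b fell from 21.6 to 5.02 CPM and Dkc1, the pseudouridine synthase dyskerin, from 16.6 to 4.42 CPM; Wdr43 rose from 32.8 to 66.0 CPM.

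Of 48 tested lysosome and autophagy genes 23 rose, 20 fell and 5 did not pass under TMM, 16 and 25 with upper-quartile scaling and 7 and 40 with library totals, so the direction of the list flipped with the scaling. Optn, an autophagy receptor, rose from 4.21 to 24.8 CPM, and Atp6v0d2, a proton pump subunit, fell from 201 to 63.6 CPM. Of 42 tested histone and DNA modifiers 21 rose, 14 fell and 7 did not pass, 9 and 26 with library totals. Setdb2, a histone methyltransferase, rose from 7.05 to 60.2 CPM and Kdm4a, a histone demethylase, from 80.5 to 442 CPM. The class IIa deacetylases Hdac5 and Hdac4 fell from 64.2 to 4.101 CPM and from 48.2 to 9.402 CPM. Hdac5 was at 58.7, 65.96 and 67.9 CPM in Con and 3.17, 4.302, 4.47, 4.38 and 4.17 CPM in LPS, without overlap (log2 fold change -3.97 ± 0.14, adjusted p = 4.92e-17).

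The 5 LPS libraries differed most from each other in a few listed genes. Among listed genes with at least 50 CPM in LPS, the 8 with the largest coefficient of variation were Hmox1, Saa3, Nos2, Tgtp1, Vegfa, Mt2, Idi1 and Pfkfb3, at 34.0% to 18.6%. The median over all 3420 tested genes with at least 50 CPM was 4.93% and the 90th percentile 8.87%. Hmox1, heme oxygenase, was at 86.9, 91.7 and 93.99 CPM in Con and 213, 293, 306, 209.9 and 457 CPM in LPS, so the LPS5 library stood highest and LPS4 lowest. LPS1 and LPS4 were the lowest and LPS5 the highest for Hmox1, Saa3 (an acute phase protein), Nos2, Vegfa, Mt2 (a metallothionein) and Pfkfb3, while LPS1 was highest for Tgtp1, a GTPase, and Idi1, an isoprenoid enzyme. A tally chosen after these values were seen found that order in 314 of the 3420 genes (9.18%), and the opposite order, with LPS1 and LPS4 highest and LPS5 lowest, in 305 (8.92%). In the tenth of genes with the largest spread the counts were 96 of 342 (28.1%) and 76 (22.2%), so both orders were more frequent there. The second principal component placed the LPS libraries in that order too. On it LPS1 (-19.1) and LPS4 (-10.5) stood at 1 end, LPS5 (15.9) at the other, and LPS2 (5.30) and LPS3 (8.30) between them. LPS1 had the largest total (18582823) and LPS5 the smallest (18089053) of the 5. The total of LPS4 (18245099) was below those of LPS2 (18282671) and LPS3 (18246959), unlike that order. The part of depth in this spread was not tested. Vegfa also overlapped Con and did not pass (log2 fold change -0.17 ± 0.21, adjusted p = 0.456).

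**Figure D5:**
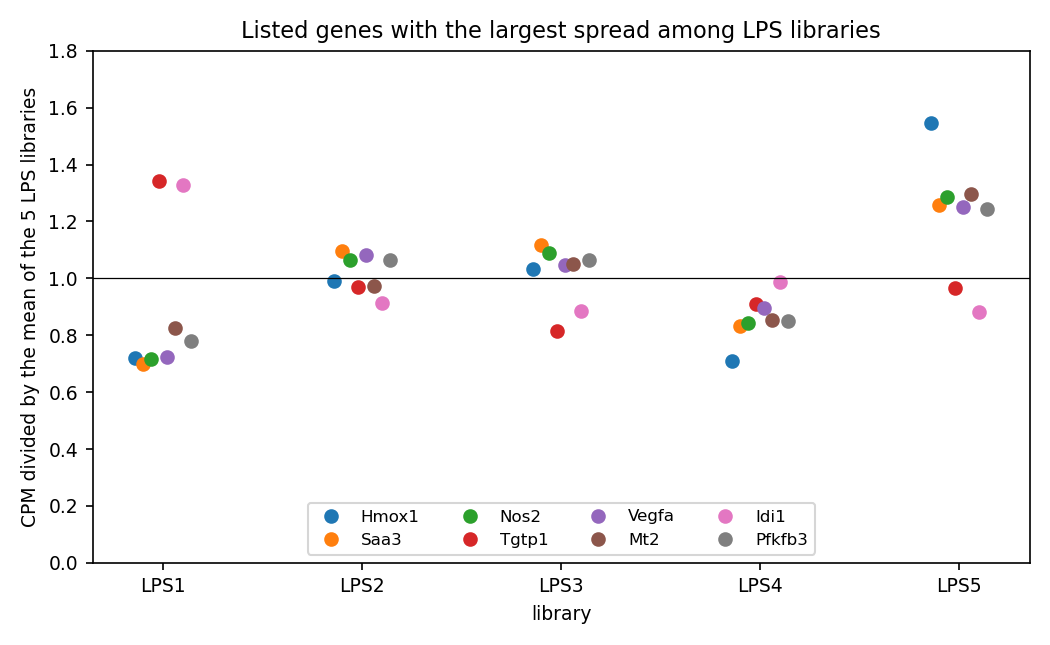
Level of the 8 listed genes with the largest spread in each of the 5 LPS libraries (x axis), divided by the gene's mean over the 5 (y axis). The line at 1 marks the mean. 6 of the genes are lowest in LPS1 or LPS4 and highest in LPS5, and Tgtp1 and Idi1 are highest in LPS1.

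Marker genes were examined for the cell type the labels give and for others. Macrophage markers such as Cd68 (284 and 288 CPM) and Lyz2 (8002 and 9551 CPM) were abundant in both groups. The 21 macrophage markers tested summed to 2.73% to 2.82% of the counts in Con and 1.81% to 1.97% in LPS, with 7 higher and 10 lower. These shares are of library totals, and with TMM the direction of that sum turned, to 17988 to 18723 CPM in Con and 20134 to 22006 CPM in LPS. The dendritic cell list, of which 7 of 12 tested members rose and 4 fell (4 and 6 with library totals), summed to 0.226% to 0.249% of the counts in Con and 0.548% to 0.585% in LPS. Ccr7 and Fscn1, the actin bundler of mature dendritic cells, held most of that rise, while Flt3 was at 1.51 and 1.103 CPM (adjusted p = 0.0584) and Cd209a fell from 41.8 to 2.86 CPM. Flt3 was called lower with upper-quartile scaling, with library totals, without Con3 and without LPS3 (log2 fold changes -0.72, -1.19, -0.62 and -0.59). Neutrophil markers summed to 0.218% to 0.265% of the counts in Con and 0.228% to 0.296% in LPS, ranges that overlap, but with TMM to 1448 to 1747 CPM in Con and 2498 to 3296 CPM in LPS, which do not. Of its 16 tested members 8 rose, 4 fell and 4 did not pass, and 3 and 8 with library totals, with Lcn2 (from 99.7 to 654 CPM) the largest gain. Markers of T and NK cells (0.0152% to 0.0172% of the counts in Con and 0.0246% to 0.0284% in LPS), B cells (0.00329% to 0.00365% of the counts in Con and 0.0146% to 0.0161% in LPS), mast cells (0.0165% to 0.0187% of the counts in Con and 0.0480% to 0.0521% in LPS) and endothelium (0.0122% to 0.0130% of the counts in Con and 0.0413% to 0.0503% in LPS) were low. In those lists a single gene had the largest gain each: Il7r (from 99.9 to 266 CPM), Blnk, an adaptor of B cells and macrophages (from 19.5 to 163 CPM), Hdc, the histamine enzyme (from 25.7 to 474 CPM), and Kdr (from 31.7 to 468 CPM). Stromal markers summed to 0.365% to 0.377% of the counts in Con and 0.168% to 0.183% in LPS, nearly all of it Vim (with TMM 2421 to 2483 CPM in Con and 1858 to 2037 CPM in LPS), and erythroid markers to 0.000441% to 0.000783% of the counts in Con and 0.000658% to 0.00100% in LPS. The T cell gene Cd3e was at 0.0602 CPM in Con and had no counts in LPS. The part of these cells in the changes described above was not tested.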

How the data were processed

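Poly(A) RNA libraries of 3 Con and 5 LPS samples were compared. Per the submitters' processing notes, reads were handled with HISAT2 and the build mm39. The software for counting, the annotation and the strand option were not given in the sources used here. Reads of antisense partners or overlapping genes may therefore be mixed. The authors deposited estimated counts per gene symbol, without normalization, of which 6.35% of values were not whole. They were rounded. Genes were filtered with filterByExpr (12465 kept, 99.97% of counts), scaled by TMM (mean factors 1.51 in Con and 0.902 in LPS) and tested with edgeR 4.0.16 (R 4.3.3) in a fit of all 18 libraries by group. A group without counts was taken as 3 counts in all for a bound on the fold. With 1 to 3 counts, ratios carry exact 95% Poisson intervals (counting error only). The test was also run on simulated counts (12222 genes). It found 42% of the 1.25-fold changes, 80.8% of the 1.5-fold, 96% of the 2-fold and 100% of the 4-fold ones, with 5.01% of calls false. That simulation changed few genes, in random directions and only among those with enough counts. It otherwise gave all libraries the same composition. In the data 83.0% of the genes tested passed and the mean factors differed, so these rates need not hold for this comparison.

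Members and gene lists were chosen with earlier results of these data known. The rule named key genes of each list, up to 4 called members per list with the largest change and at least 5 CPM in the higher group, called members against the majority where 3 or fewer, the 12 largest gains and losses of CPM, and the 8 listed genes with the largest spread in LPS at 50 CPM or more. Predicted genes were left unnamed, and a few others that meet it are not reported here. Named outside that rule, after their values were seen, were Bcl2, Ccnb2, Cd3e, Cd68, Cebpa, Clec10a, Daglb, Elovl1, Fcgr3, Flt3, Gsdme, Ifitm1, Ifngr2, Il10ra, Il12rb2, Il16, Il18r1, Il18rap, Il1rl1, Irf3, Kif20a, Klf4, Lifr, Ltb4r1, Lyz2, Ndrg1, P4ha1, Parp1, Rxra, Srm, Tlr5, Tnfsf12, Tnfsf13, Tpx2 and Tyms. Alternatives were other scalings, DESeq2 1.42.0, limma-voom (limma 3.58.1), other filters, fewer libraries, a replicate block, a term for replicates 1 to 3 against 4 and 5, and leaving out each library.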

Additional observations from a re-analysis of the deposited data

Results flagged for a closer look

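In 15 of 246 genes examined, the highest or lowest of the 5 LPS libraries stood apart from the other 4 by more than Dixon's 95% criterion, which chance alone meets in about 1 in 20 groups. Of these, 9 were in LPS1. Fos, an AP-1 factor, was at 17.2 CPM in LPS1 against a median of 6.89 CPM in the other 4 LPS libraries. The LPS1 library was also high in Idi1 (329 against 222 CPM), Mgl2 (695 against 561 CPM) and Eef1a1 (7379 against 6545 CPM). It was low in Ptges (23.7 against 34.0 CPM), Plau (13.9 against 19.6 CPM), Rxra (10.7 against 13.5 CPM), Hdac5 (3.17 against 4.34 CPM) and Stat2 (618 against 762 CPM). In LPS5, Irf8 was low (571 against 737 CPM), while Dkc1 (5.09 against 4.24 CPM) and Gsdme (1.60 against 1.14 CPM) were high. LPS3 was low in Lta4h (53.9 against 56.4 CPM) and high in Slc25a1 (78.1 against 73.2 CPM), and Mavs was high in LPS4 (14.9 against 13.2 CPM). Apart from Eef1a1 in LPS1, all of these values lay on the same side of every Con library as the rest of the LPS group.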

How the results depend on the processing

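The library totals were the alternative that moved the counts of calls by over 1.5 times: 2365 genes were higher and 8802 lower, with 1325 at least 2-fold higher and 5221 at least 2-fold lower. Upper-quartile scaling gave 3754 higher and 6665 lower, and DESeq2 size factors 5075 and 5274. Leaving out each library in turn gave 4823 to 4915 genes higher, 5194 to 5303 lower, 2300 to 2353 at least 2-fold higher and 2599 to 2645 at least 2-fold lower. The share of the 100 most counted genes and the number of genes at or above 1 CPM kept their direction and side of the threshold under every alternative run. Signs reversed, in log2 fold change, with library totals for Ifitm1 (-0.26), Elovl1 (-0.55), Lyz2 (-0.49), Cd68 (-0.72), Sdha (-0.65) and Tpx2 (-0.60), and with upper-quartile scaling for Elovl1 (-0.084), Lyz2 (-0.023), Cd68 (-0.26), Sdha (-0.18) and Tpx2 (-0.14). Cd68 also reversed without LPS replicate 3 (-0.0004) or 5 (-0.022), and ranged up to 0.067 over the libraries left out. Ciita reversed with replicates 1 to 3 only (0.0084), and ranged from -0.071 to 0.024 over the libraries left out, reversed without Con replicate 2 or LPS replicate 5. Of these, Elovl1, Ifitm1 and Lyz2 had passed the test. The cause was not tested.

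A fit with the replicate number as a block gave 5012 genes higher and 5356 lower. Same-numbered libraries correlated in their deviations from the group means at 0.25, 0.04 and 0.31, and differently numbered ones at -0.29 to 0.07. The numbers were not taken to pair the libraries because the labels do not say that they do. Whether they do was not tested. Con1 and Con3, but not Con2, correlated best with the LPS library of their own number. Depth limits mainly the genes with few counts in a group, whose folds are bounds or ratios with wide intervals.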
